A study of Mus musculus with 19 samples.

Results

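TRBV5, also called Vβ1, is one of the variable segments of the mouse T cell receptor beta (TRB) locus, and its transcripts were followed here through the lymph nodes and the infarcted heart. Its members were all entries assigned to TRBV5 in the 19 deposited tables, an entry being one CDR3 sequence in amino acids with its assigned TRBV and TRBJ and a read count. They came to 190233 distinct entries of 1505703 in all, and TRBV5 was 1 of 22 TRBV segments listed. The segment was chosen from its share of reads in these same libraries, so that share is described below without a test.

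All libraries were made from the RNA of CD4+ TCRβ+ T cells sorted from Balb/c mice on day 7 after surgery or injection. Mediastinal lymph nodes, which drain the heart, came from mice with a ligated left anterior descending coronary artery (myocardial infarction, MI, n = 3) and from mice with a thoracotomy and no ligation (sham, n = 4). The infarcted hearts gave 3 further libraries. Axillary lymph nodes came from mice given a subcutaneous injection of the adjuvant Titermax Gold alone (n = 4), of 100 µg of porcine cardiac myosin in adjuvant (n = 2) or of 1 mg of mouse heart protein extract in adjuvant (n = 3). Operated mice also received the pain killer buprenorphine. Nodes gave 500000 sorted cells per library and hearts 5000. The labels used here give neither age nor sex and do not say whether a library came from 1 animal, so each p-value measures the spread between these samples. The adjuvant volume of the immunized mice is given as either of 2 values, the lower of which the adjuvant controls received, so volume and antigen cannot be told apart.

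A TRB chain is assembled in the thymus by joining a V, a D and a J segment, with bases trimmed and added at the joins. The stretch across the joins is the CDR3, the loop that lies over the peptide when the receptor meets a peptide held by an MHC molecule. Its first residues are encoded by the V segment, its last by the J segment, and those between by the D segment and the added bases, so the V segment sets how a CDR3 begins and the J segment how it ends. TRBV5 lies on chromosome 6 between TRBV4 and the pseudogene TRBV6 in the RefSeq gene order, and all 33 segment names of the files matched a RefSeq symbol.

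The TRBV5 CDR3s that the results turn on are shown as the tables list them, without the leading cysteine and the last phenylalanine. The first set holds the 5 with the highest mean share among the TRBV5 CDR3s that every node library contained, to show how they begin and end.
shared by all nodes, rank 1: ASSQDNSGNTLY
shared by all nodes, rank 2: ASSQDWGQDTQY
shared by all nodes, rank 3: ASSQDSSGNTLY
shared by all nodes, rank 4: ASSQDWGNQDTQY
shared by all nodes, rank 5: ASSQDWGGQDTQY
The other set holds the 3 most abundant TRBV5 CDR3s of each heart, and shows how they differed between hearts.
MI heart 1, rank 1: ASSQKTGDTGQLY
MI heart 1, rank 2: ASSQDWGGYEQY
MI heart 1, rank 3: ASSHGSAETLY
MI heart 2, rank 1: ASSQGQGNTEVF
MI heart 2, rank 2: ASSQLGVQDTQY
MI heart 2, rank 3: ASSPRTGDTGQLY
MI heart 3, rank 1: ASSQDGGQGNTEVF
MI heart 3, rank 2: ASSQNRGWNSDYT
MI heart 3, rank 3: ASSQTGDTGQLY

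TRBV5 was among the most used segments of every node and was lowest in the hearts. It held 19.0%, 19.1%, 19.2% and 20.4% of reads in the 4 sham nodes and 19.9%, 20.3% and 19.0% in the 3 MI nodes. After adjuvant alone it held 21.6%, 21.3%, 21.3% and 21.7%, after myosin 19.97% and 20.1%, and after heart extract 19.99%, 19.8% and 17.8%. In the hearts it held 13.6%, 9.79% and 12.8%. The 4 adjuvant nodes were above every other library, the 3 hearts were below every other library, and the sham, MI, myosin and heart extract nodes lay between. With entries of 10 or more reads only, MI node 2, at 21.44%, was above adjuvant nodes 2 and 3, at 21.37% and 21.25%.

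By group means, the order was adjuvant (21.4% ± 0.226, SD, n = 4), myosin (20.04% ± 0.102, n = 2), MI node (19.7% ± 0.681, n = 3), sham (19.4% ± 0.650, n = 4), heart extract (19.2% ± 1.18, n = 3) and heart (12.0% ± 2.0, n = 3). From myosin to heart extract, each group differed from its neighbour by less than the larger of the SDs. TRBV5 had the most reads of all segments in adjuvant nodes 1 and 3. It came after TRBV19 (Vβ6), the segment with most reads in the other 14 nodes and in all hearts, and in hearts 2 and 3 also after TRBV14 (Vβ13). The Wilson 95% interval of a single library was narrow at this depth, 9.77% to 9.82% in heart 2, but reads are PCR copies without molecular identifiers, so such intervals cover counting error only.

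**Figure D1:**
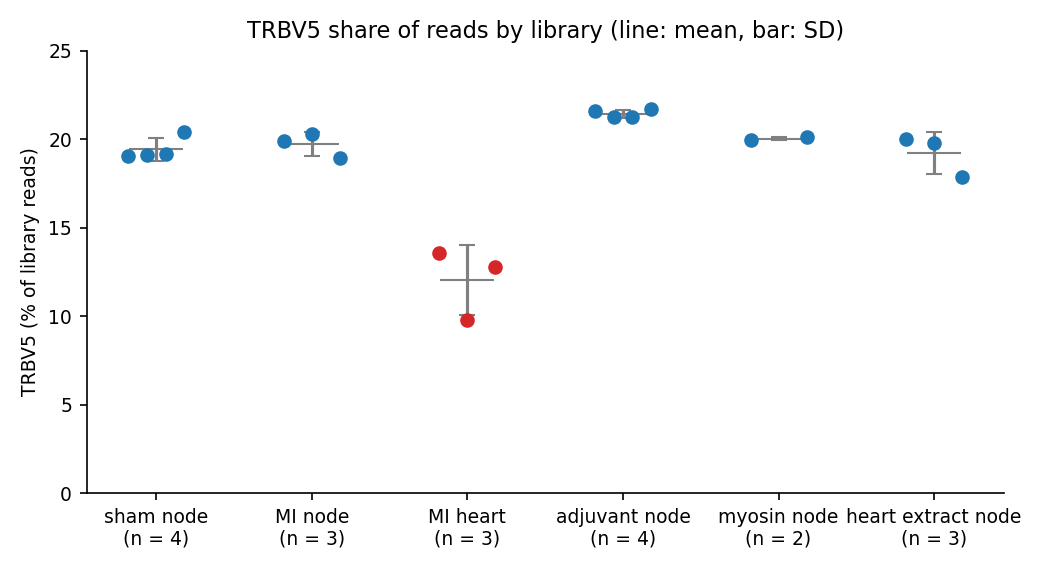
TRBV5 reads as a percentage of all reads (vertical axis) in each library (points), by group (horizontal axis), with the group mean (line) and SD (bar). The 4 adjuvant nodes sit between 21.3% and 21.7%, the other nodes between 17.8% and 20.4%, and the 3 hearts between 9.79% and 13.6%.

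The mean share of the 5 antigen nodes differed from that of the adjuvant nodes by -1.91 percentage points, and the ranges did not overlap. Without heart extract node 3 the difference was -1.49. Sham nodes differed from adjuvant nodes by -2.02 points, again without overlap, although they differ from them both in the site of the node and in the treatment. The comparisons with myosin, heart extract and sham all use the same 4 adjuvant nodes, which were themselves the highest libraries. MI and sham nodes overlapped and differed by 0.284 points, by -0.00748 without MI node 2, 0.659 without MI node 3 and 0.608 without sham node 4. In bulk RNA, fewer cells using TRBV5 and less TRB RNA per cell cannot be told apart.

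Counting distinct entries instead of reads gave another order. TRBV5 made up 11.9% to 18.5% of the entries of a node and 14.3%, 12.0% and 12.4% of those of a heart, beside 12.2%, 12.4% and 12.1% in the MI nodes. On this measure the hearts were 0.654 points above the MI nodes, whereas by reads they differed by -7.66 points. Most heart entries had few reads: 50 of 450, 63 of 539 and 84 of 651 TRBV5 entries of hearts 1 to 3 had 100 or more. Entries of all segments with 100 or more reads held 98.9% to 99.1% of heart reads. Heart 3 listed 5247 entries from 5000 sorted cells, so an entry cannot be taken as a cell. The node libraries listed between 45452 and 291639 entries at similar read totals, and TRBV5 made up 11.9% of them in sham node 3, which listed 272267, and 18.5% in adjuvant node 3, which listed 53672. The part of list length in these shares was not tested.

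Read totals ran from 7534295 to 9235800 in nodes and from 2426715 to 5126910 in hearts, of which TRBV5 held 1387251 to 1878968 and 329852 to 654300 reads. The tables list no entry below 2 reads. The same CDR3 and TRBJ were often listed with another TRBV in the same library too, for entries holding 8.25% to 38.4% of a library's TRBV5 reads. Entries for which another TRBV had more reads held 0.204% to 6.34%. Only TRB transcripts were amplified, so the labelled cell type could not be checked against other markers.

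TRBV5 was joined to the 11 TRBJ segments in proportions unlike those of the other TRBV segments. The partner with most TRBV5 reads was TRBJ2-7 in 9 nodes and TRBJ1-1 in 7. TRBJ2-5 took 13.0% ± 0.822 of TRBV5 reads against 8.95% ± 0.588 of the reads of all other segments (SD, n = 16), and TRBJ2-7 took 15.0% ± 0.656 against 11.6% ± 0.692. Both were higher within TRBV5 in 16 of 16 nodes. Another 4 TRBJ segments were lower within TRBV5 in 16 of 16 nodes.

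TRBJ1-2 stood farthest apart in proportion, with 2.22% ± 0.324 of TRBV5 reads against 5.39% ± 0.345 of other reads, a ratio of 0.411. TRBJ1-3 took 6.08% against 9.01%, TRBJ1-5 1.58% against 2.65% and TRBJ2-4 7.51% against 8.69%. An exact two-sided sign-flip permutation test over the 16 nodes gave p = 3.05e-05 for each of these 6 differences, the smallest value it can give, and an adjusted p of 5.23e-05 over the 12 measures compared (Benjamini-Hochberg). TRBJ2-2 and TRBJ2-3 were higher within TRBV5 by 0.489 and 0.813 points, in 13 and 14 of 16 nodes, with adjusted exact permutation p of 9.77e-04 and 9.61e-04. TRBJ1-1, TRBJ1-4 and TRBJ2-1 did not pass, with adjusted exact permutation p of 0.209, 0.142 and 0.0922 and differences of -0.36, 0.26 and -0.40 points.

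In the hearts, several of these contrasts had the same sign in each library. TRBJ2-5 took 14.6%, 13.9% and 15.6% of TRBV5 reads in hearts 1 to 3 against 6.55%, 6.09% and 10.5% of other reads. TRBJ2-7 took 16.2%, 13.0% and 12.8% against 10.7%, 9.12% and 10.9%. TRBJ1-2 took 0%, 2.14% and 6.24% against 3.27%, 4.21% and 11.9%, so that heart 1 listed no TRBV5 entry with it. TRBJ1-5 was different, at 2.26%, 2.52% and 2.12% within TRBV5 against 0.820%, 1.74% and 2.47%. TRBJ2-4 took 14.1%, 2.45% and 5.46% against 4.38%, 4.44% and 7.86%, so heart 1 had the sign opposite to the nodes.

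**Figure D2:**
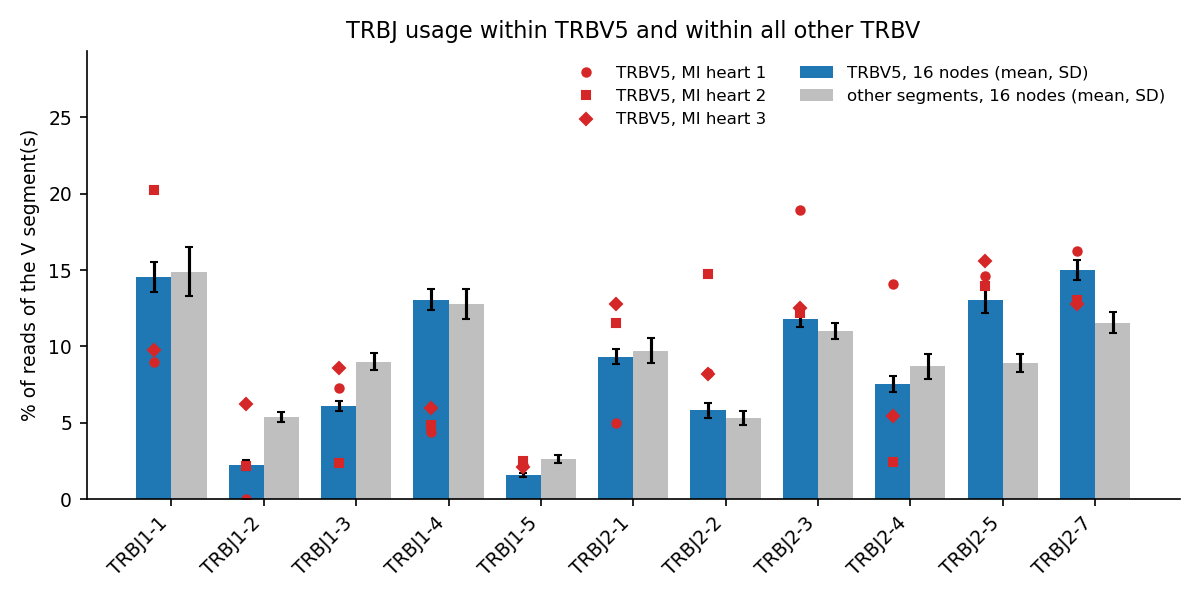
Percentage of reads (vertical axis) with each TRBJ segment (horizontal axis) among TRBV5 reads and among the reads of all other TRBV segments, as mean and SD of 16 nodes (bars), with TRBV5 in each heart (red symbols). TRBJ2-5 and TRBJ2-7 are higher and TRBJ1-2 and TRBJ1-3 lower within TRBV5, and TRBJ1-4 in the hearts, at 4.40% to 5.97%, lies below the node bar at 13.1%.

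TRBV5 CDR3s were long. Weighted by reads, they averaged 12.67 ± 0.0317 residues as listed, against 11.95 ± 0.0212 for all other segments together (SD, n = 16), a difference of 0.727 residues seen in 16 of 16 nodes (exact two-sided sign-flip permutation p = 3.05e-05, the smallest possible, adjusted 5.23e-05). TRBV5 had the highest mean of the 22 segments, followed by TRBV2 at 12.59 and TRBV17 at 12.27. The commonest length was 13 residues within TRBV5, with 34.1% of its reads, and 12 residues in the other segments, with 31.1% of theirs.

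The difference in length was measured with each TRBJ partner too. Within each of the 11 TRBJ segments TRBV5 CDR3s were longer in 16 of 16 nodes, by 0.669 residues with TRBJ1-3 up to 0.857 with TRBJ2-4. With all TRBJ weighted as TRBV5 uses them the difference was 0.744 ± 0.0266 residues. In the hearts the mean length of TRBV5 CDR3s was 12.50, 12.73 and 12.88 residues, above the other segments of the same heart at 12.25, 11.97 and 11.79.

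**Figure D3:**
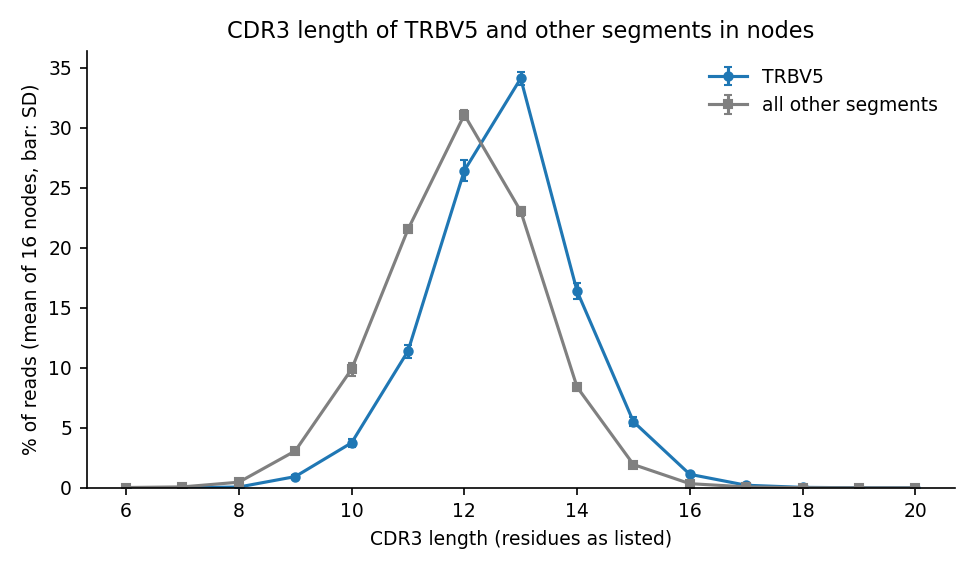
Percentage of reads (vertical axis) by CDR3 length in residues (horizontal axis) for TRBV5 and for all other segments, as mean and SD (bars) of 16 nodes. TRBV5 peaks at 13 residues with 34.1% and the other segments at 12 with 31.1%.

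Nearly all TRBV5 CDR3s began alike. ASS opened 98.9% of TRBV5 reads in nodes, and ASSQ opened 71.4% ± 0.550 (SD, n = 16), against 5.77% ± 0.542 in all other segments together and 80.3% in TRBV2. The next openings were ASSP with 13.5%, ASSR with 4.17%, ASSH with 3.82% and ASSL with 3.05%. After ASSQ the commonest residue was aspartate: ASSQD opened 27.3% of TRBV5 reads, ASSQE 13.3% and ASSQG 11.05%. The tripeptide DWG, picked after the values were seen, lay in 5.65% ± 0.291 of TRBV5 reads and in 2.46% ± 0.143 of the others, with 4.30% ± 0.427 in TRBV2.

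TRBV5 supplied many of the CDR3s that recurred in every node. Its 188496 distinct node CDR3s were mostly private, 78.5% of them being in 1 node, and 38 were in all 16. Counted as pairs of TRBV and CDR3, the 1303089 of the other 21 segments held 59 that were in all 16, of which TRBV13-2 had 17, TRBV20 14 and TRBV19 1. These segments differ in size: TRBV13-2 averaged 4.66%, TRBV20 3.67% and TRBV19 23.4% of node reads, and TRBV5 held 17.8% to 21.7%. Relative to their share of reads, TRBV13-2 and TRBV20 thus had more such CDR3s than TRBV5, and TRBV19 had fewer. The 38 held 1.82% of TRBV5 node reads, between 1.495% in adjuvant node 4 and 2.33% in sham node 4. Entries in other segments that were in all 16 held 0.267% of theirs, a pooled value that was not split for TRBV13-2 or TRBV20.

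The 38 shared CDR3s had 9 to 13 residues (median 13). Of them 33 began with ASSQ, 14 contained DWG, and 11 used TRBJ2-5, 9 TRBJ2-7 and 6 TRBJ1-4. The most abundant, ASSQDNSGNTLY with TRBJ1-3, averaged 0.125% ± 0.0538 of TRBV5 reads over the nodes and ranged from 0.0647% to 0.228%. It was the top TRBV5 CDR3 of both MI node 3, with 3965 reads, and myosin node 2, with 2141. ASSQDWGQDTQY with TRBJ2-5 averaged 0.118% ± 0.0431, and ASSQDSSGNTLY with TRBJ1-3, 0.0931% ± 0.0445. The group means of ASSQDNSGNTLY ran from 0.106% after myosin to 0.136% after adjuvant, with SDs of 0.0354% to 0.0836%, so the groups overlapped.

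Of the 38, heart 1 listed 3, heart 2 listed 0 and heart 3 listed 3. For scale, MI node 2 had the longest TRBV5 list, with 35993 CDR3s, of which hearts 1 to 3 listed 40, 60 and 52. In heart 1 those of the 38 held 10.1% of TRBV5 reads, of which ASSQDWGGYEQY alone held 4.81%, and in heart 3 1.64%.

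The top TRBV5 CDR3 of a node held little of the segment, from 0.141% of TRBV5 reads in myosin node 2 to 1.63% in sham node 1. The latter, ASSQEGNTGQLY with TRBJ2-2, had 26029 reads in sham node 1 and at most 311 in any of the 7 other nodes listing it. In the MI nodes the tops were a CDR3 of 15 residues with TRBJ1-4 in node 1, with 4617 reads, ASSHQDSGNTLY with TRBJ1-3 in node 2, with 8717, and the shared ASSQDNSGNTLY in node 3. The adjuvant tops were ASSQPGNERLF, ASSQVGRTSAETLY, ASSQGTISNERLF and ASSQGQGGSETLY, with 3250, 5330, 4968 and 5320 reads. Those after myosin were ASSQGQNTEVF and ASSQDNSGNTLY, and those after heart extract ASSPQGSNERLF, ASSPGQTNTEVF and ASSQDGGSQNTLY. The remaining sham tops were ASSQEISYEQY, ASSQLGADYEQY and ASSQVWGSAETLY.

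The first question of the design was whether infarction changed the draining node. Within TRBV5 the TRBJ usage of MI and sham nodes was close: edgeR's quasi-likelihood test with Benjamini-Hochberg adjustment called 0 of the 11 TRBJ partners, with 0 at an unadjusted p under 0.05 and 0 called by DESeq2. The share called among all 242 TRBV-TRBJ pairs was 0% as well. TRBJ2-2 had the smallest p, at 5.71% ± 0.344 of TRBV5 reads after MI (n = 3) and 6.32% ± 0.477 after sham (n = 4), a log2 fold change of -0.15 with an adjusted p of 0.928 by edgeR. TRBJ2-5 was next, at 12.8% and 13.7%, with the same adjusted p of 0.928.

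CDR3 features of TRBV5 did not pass in this comparison either. Mean length was 12.67 residues in both groups and ASSQ opened 71.3% ± 0.467 after MI and 71.4% ± 0.329 after sham. Drawn to 1387251 TRBV5 reads, MI nodes held 29416 ± 7296 distinct TRBV5 CDR3s and sham nodes 19070 ± 9314 (SD), and the exact two-sided permutation test gave p = 0.171, or 0.571 adjusted over 4 features. The 10 most abundant CDR3s held 1.34% ± 0.123 and 2.44% ± 1.35 of TRBV5 reads, an exact two-sided permutation p of 0.286. Without sham node 1 that difference went from -1.10 to -0.577 points. This two-sided test doubles the smaller tail, so 3 against 4 libraries cannot give a p under 0.05. No feature could therefore pass here, whatever its values.

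The immunizations asked whether heart antigens changed the axillary node beyond adjuvant. Within TRBV5, edgeR with Benjamini-Hochberg adjustment called 0 of 11 TRBJ partners for both antigens together, for heart extract and for myosin, with 0 at an unadjusted p under 0.05 each time and 0 called by DESeq2. Among all 242 pairs it called 0% in each of these comparisons. The smallest p was that of TRBJ2-5, at 13.3% ± 0.352 in the 5 antigen nodes and 12.3% ± 1.02 in the 4 adjuvant nodes, with an adjusted p of 0.632 by edgeR. TRBJ2-3 followed, at 11.6% and 12.2%, adjusted p = 0.788 by edgeR.

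For heart extract alone, the same partners led: TRBJ2-5 at 13.3% ± 0.462 and TRBJ2-3 at 11.4% ± 0.523, with adjusted p of 0.619 and 0.630 by edgeR. For myosin alone, TRBJ1-2 took 2.60% against 2.10% and TRBJ1-5 1.74% against 1.54%, both with an adjusted p of 0.910 by edgeR. Of the features, ASSQ opened 71.1% ± 0.720 in antigen nodes and 71.7% ± 0.531 in adjuvant nodes, with an exact two-sided permutation p of 0.206. Distinct TRBV5 CDR3s numbered 13470 ± 4126 and 13610 ± 3578, p = 0.937 by the same exact permutation test. With 5 against 4 libraries this test can give an unadjusted p under 0.05.

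Between sham mediastinal and adjuvant axillary nodes 1 TRBJ partner of TRBV5 passed. TRBJ1-4 took 12.8%, 12.5%, 12.4% and 11.3% of TRBV5 reads in sham nodes 1 to 4 and 14.2%, 13.6%, 13.8% and 13.2% in adjuvant nodes 1 to 4, so the groups did not overlap. Its log2 fold change was -0.16 with an SE of 0.0491 and an adjusted p of 0.0321 by edgeR's quasi-likelihood test with Benjamini-Hochberg adjustment. Of all 242 pairs, 45, or 18.6%, were called, so 1 of 11 was below the background. The call was lost with adjuvant node 1, 2 or 3 or sham node 2, 3 or 4 left out, the adjusted p of TRBJ1-4 by edgeR then being 0.0858, 0.0552, 0.0529, 0.0503, 0.0595 and 0.0994. With sham node 1 left out 3 partners were called, with adjuvant node 4 left out 2, and by DESeq2 3. Fitted on sham and adjuvant nodes alone, TRBJ1-4 had an adjusted p of 0.0959 by edgeR. TRBJ2-5, at 13.7% against 12.3%, had an adjusted p of 0.0618 by edgeR.

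No CDR3 feature of TRBV5 passed between sham and adjuvant nodes. The adjusted exact permutation p over the 4 features ran from 0.533 to 0.657, and mean length was 12.67 and 12.68 residues.

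The heart comparison asked how T cells within the infarct differ from those of the node that drains it. TRBV5 partners were called in 1 of 11 cases, again TRBJ1-4, while 27 of all 209 pairs, or 12.9%, were called, which is close to 1 in 11. TRBJ1-4 took 4.40%, 4.89% and 5.97% of TRBV5 reads in hearts 1 to 3 and 12.7%, 12.8% and 13.3% in MI nodes 1 to 3. All hearts were below all nodes of the series, which ranged from 11.3% to 14.2%. The log2 fold change was -1.35 with an SE of 0.225 and an adjusted p of 0.0139 by edgeR with Benjamini-Hochberg adjustment. Without MI node 1, 2 or 3 its adjusted p by edgeR was 0.117, 0.118 and 0.0913, and 0 partners were called, while without heart 2 or heart 3 there were 2. DESeq2 called 3, TRBJ1-4 among them.

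In the other segments together TRBJ1-4 took 14.9%, 18.7% and 11.02% of reads in hearts 1 to 3, beside 12.5% in each MI node. Single segments varied: within TRBV19 it took 16.2%, 13.9% and 13.1%, and within TRBV14 17.9%, 41.4% and 5.06%. In heart 3 TRBV14 was thus below TRBV5, which was at 5.97%. Of the TRBV5 entries with 100 or more reads, 4 of 50, 5 of 63 and 3 of 84 used TRBJ1-4 in hearts 1 to 3. Counted as distinct entries, TRBJ1-4 made up 4.89%, 7.79% and 4.76% of TRBV5 entries in the hearts and 10.2%, 10.5% and 11.04% in MI nodes 1 to 3, and its adjusted p by edgeR was 0.177. Of the entries of all other segments it made up 11.3%, 11.5% and 10.8% in the hearts and 10.3%, 10.9% and 10.9% in the MI nodes. TRBJ1-5 and TRBJ2-2, the next by p, were at 2.30% ± 0.207 against 1.59% ± 0.0591 and at 10.4% ± 3.75 against 5.71% ± 0.344, with adjusted p of 0.209 and 0.237 by edgeR.

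TRBV5 CDR3s in the heart were few and uneven, as were the heart libraries as a whole. Hearts 1 to 3 listed 3156, 4504 and 5247 entries in all, and MI nodes 1 to 3 listed 253291, 291639 and 179014. The largest entry of another segment held 2.81%, 3.30% and 3.35% of a heart library, and the largest of TRBV5 1.10%, 0.691% and 0.523%. At 329852 drawn reads, hearts listed 529 ± 75.7 distinct TRBV5 CDR3s and MI nodes 26296 ± 7299 (SD, n = 3 each), and the 10 most abundant held 37.7% ± 5.67 and 1.34% ± 0.119 of TRBV5 reads. The exact two-sided permutation p was 0.1 for both, the smallest that 3 against 3 allows. The hearts also had 5000 sorted cells against 500000. That is fewer cells than the 26296 distinct TRBV5 CDR3s of the MI nodes, so the order of the distinct counts was set by the design. The part of cell number in the size of these differences was not tested. Mean length, 12.71 ± 0.190 against 12.67 ± 0.0100, and ASSQ openings, 73.0% ± 8.79 against 71.3% ± 0.467, differed by less than the spread between hearts. Counted by distinct CDR3s instead of reads, the ASSQ difference was -21.9 points, of opposite sign.

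The lower share of TRBV5 reads in the hearts was followed by abundance. Among the 100 most abundant CDR3s of a library TRBV5 held 12.8%, 7.12% and 9.24% of reads in hearts 1 to 3, and among all other CDR3s 15.6%, 14.6% and 17.6%. In MI nodes 1 to 3 the 100 most abundant gave 20.1%, 22.9% and 11.9%, so that MI node 3 lay below heart 1, and all other CDR3s gave 19.9%, 20.2% and 19.2%. The 100 most abundant are unlike parts of these libraries. Hearts listed 3156 to 5247 entries in all and MI nodes 179014 to 291639, so these classes are not of like abundance in heart and node. Of entries with 100 or more reads, TRBV5 made up 10.7%, 9.22% and 9.81% in the hearts, against 20.6%, 21.5% and 25.5% in the MI nodes. The cut-off takes unlike parts of them: such entries held 98.9%, 99.1% and 99.1% of heart reads and 40.3%, 39.2% and 62.4% of MI node reads. The median such TRBV5 entry in the hearts had 5688.5, 5386 and 6106.5 reads, above the 1805, 1846 and 1721.5 of other segments and below the 9700, 8975 and 12815 of TRBV19. Within TRBV14 it had 3656.5, 441 and 576. In MI nodes 1 to 3 the median was 141, 141 and 157 within TRBV5 and 152, 151 and 175 in other segments.

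**Figure D4:**
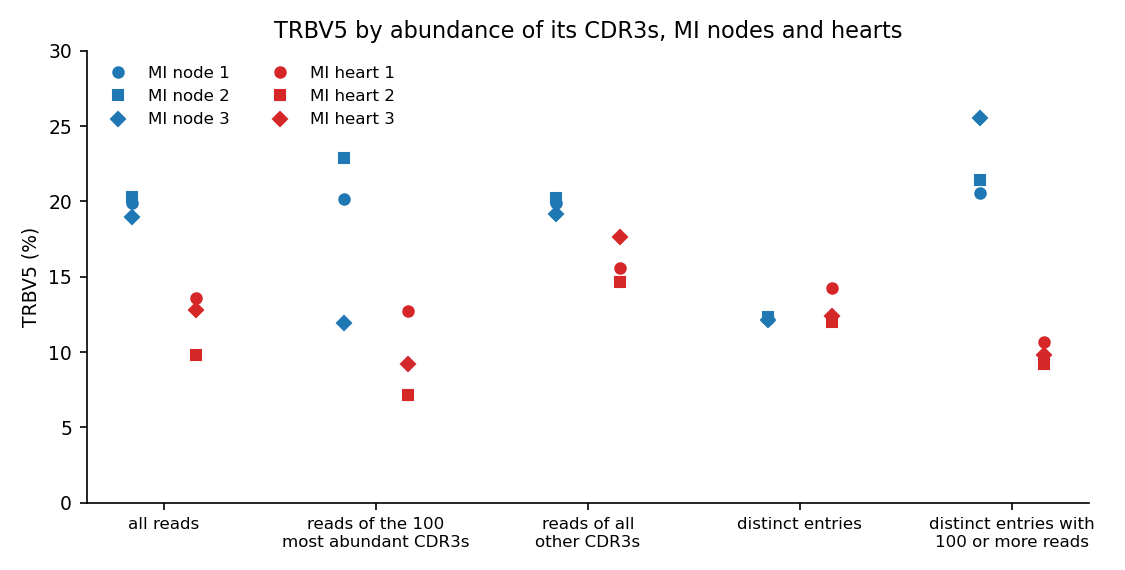
TRBV5 as a percentage (vertical axis) of all reads, of reads of the 100 most abundant CDR3s, of reads of all other CDR3s, of distinct entries and of distinct entries with 100 or more reads (horizontal axis), in each MI node and each heart. The hearts lie below the MI nodes by reads, at 9.79% to 13.6%, and near them by distinct entries, at 12.0% to 14.3%. Most heart TRBV5 entries had fewer than 100 reads, and the 100 most abundant CDR3s are unlike parts of hearts and nodes.

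The most abundant TRBV5 CDR3s of the hearts ranged from those found in every node to those found in almost none. In heart 1, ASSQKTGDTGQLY with TRBJ2-2 had 26771 reads, or 8.12% of TRBV5 reads and 1.10% of the library. Of the nodes, 3 listed it: MI node 1 with 2864 reads, MI node 2 with 44 and sham node 2 with 195. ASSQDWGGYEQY with TRBJ2-7 had 15869 reads in heart 1 and was in all 16 nodes, with 2 to 1906 reads. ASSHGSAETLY with TRBJ2-3 had 15866 reads and was in 2 nodes, with 25 reads in MI node 1 and 54 in myosin node 1.

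In heart 2, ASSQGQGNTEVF with TRBJ1-1 led with 30405 reads, or 7.06% of TRBV5 reads, and was listed in 13 nodes. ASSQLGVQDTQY with TRBJ2-5 had 19107 reads and was in 9 nodes, and it was the only TRBV5 CDR3 listed in 2 hearts, with 11 reads in heart 3. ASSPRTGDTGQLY with TRBJ2-2 had 17364 reads and was in 3 nodes, with at most 131. In heart 3, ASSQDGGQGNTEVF with TRBJ1-1 led with 26803 reads and was in 2 nodes, with 7 reads in MI node 2 and 2 in sham node 4. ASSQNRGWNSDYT with TRBJ1-2 had 23278 reads and was listed in 1 node, MI node 3, with 418. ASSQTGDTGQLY with TRBJ2-2 had 23157 and was in 7 nodes. All libraries were sequenced in 1 pool, and the part of reads carried over between libraries was not tested.

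Of the TRBV5 CDR3s with 100 or more reads in a heart, 16 of 50, 20 of 63 and 30 of 84 were in no node, or 32.0%, 31.7% and 35.7%. In the other segments, matched by TRBV and CDR3, 44.6%, 41.1% and 38.2% of such CDR3s were in no node. TRBV5 CDR3s with 100 or more reads and in no node held 20.9%, 18.4% and 30.4% of TRBV5 reads in hearts 1 to 3. In other segments, CDR3s of any read count in no node held 42.3%, 36.2% and 29.0% of their reads. TRBV5 was thus lower in hearts 1 and 2 and higher in heart 3, with unlike cut-offs. Entries with 100 or more reads held 98.9%, 99.1% and 99.1% of all reads of hearts 1 to 3. No TRBV5 CDR3 was listed in all 3 hearts.

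CDR3s listed with TRBV5 in MI nodes 1, 2 and 3 held 67.3%, 45.7% and 24.5% of the TRBV5 reads of heart 1, 42.1%, 55.8% and 34.5% of heart 2, and 29.3%, 35.8% and 43.8% of heart 3. The mean over these 9 pairs was 42.1%, beside 24.7% in sham, 18.9% in adjuvant, 23.0% in myosin and 15.2% in heart extract nodes. Single pairs overlapped, with MI nodes from 24.5% to 67.3% and sham nodes from 7.14% to 43.7%. In each heart the highest value was that of the MI node with its number. Heart and MI node pairs of the same number averaged 55.6% and those of another number 35.3%. Other segments, matched by TRBV and CDR3, averaged 31.6% in MI nodes, 17.8% in sham nodes, 8.95% in adjuvant nodes, 15.3% in myosin nodes and 7.62% in heart extract nodes. The MI nodes listed 21655 to 35993 TRBV5 CDR3s, sham nodes 10304 to 32342, adjuvant nodes 9914 to 17057, myosin nodes 16203 and 17321, and heart extract nodes 7446 to 15777. Sham node 3, with the 32342, reached 35.2%, 43.7% and 31.6% in hearts 1 to 3. The part of list length in these values was not tested. These are descriptions, without a test.

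**Figure D5:**
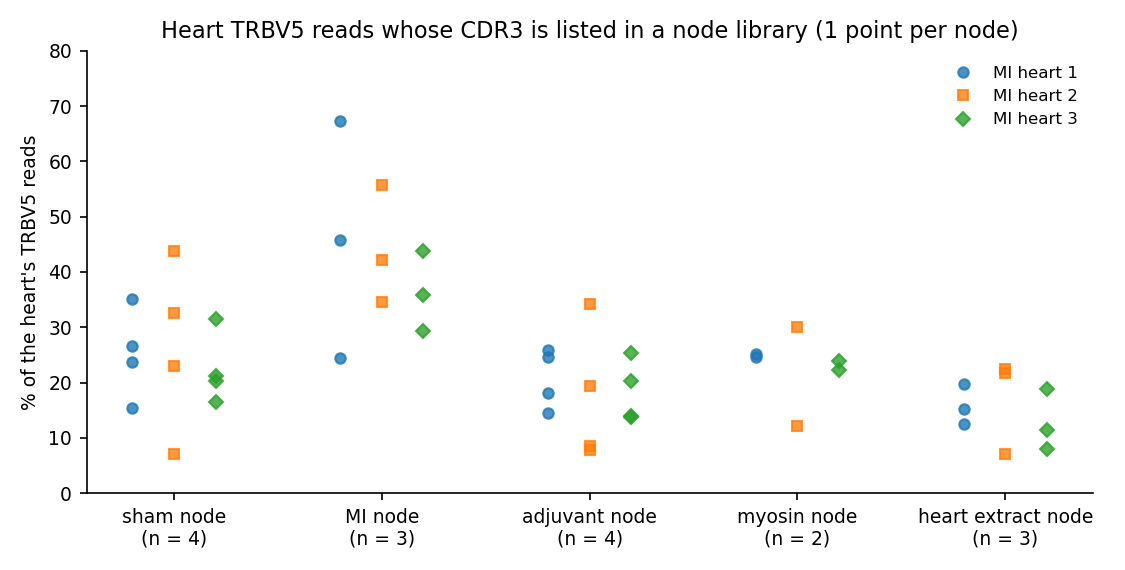
Percentage of a heart's TRBV5 reads (vertical axis) whose CDR3 was listed with TRBV5 in a node library (points, 1 per node) by node group (horizontal axis) and heart (symbol). MI nodes reach 24.5% to 67.3% and adjuvant nodes 7.85% to 34.2%.

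Over the 16 nodes, the segments whose share of reads moved most like that of TRBV5 were TRBV17 (Pearson r = 0.66, Spearman rho = 0.62), TRBV4, its neighbour in the gene order (r = 0.59, rho = 0.60), and TRBV20 (r = 0.54, rho = 0.60). TRBV19 (r = -0.77, rho = -0.75), TRBV30 (r = -0.60, rho = -0.51) and TRBV1 (r = -0.51, rho = -0.53) moved against it. Shares of a library sum to a whole and share its depth, so these are descriptions. With the 2 nodes farthest from the median TRBV5 share left out (heart extract node 3 and adjuvant node 4), r was 0.62, 0.78 and 0.57 for the first 3 segments and -0.68, -0.25 and -0.61 for TRBV19, TRBV30 and TRBV1. Within the 7 mediastinal nodes r was 0.06 for TRBV17, 0.55 for TRBV4, 0.11 for TRBV20, -0.31 for TRBV19, -0.62 for TRBV30 and -0.02 for TRBV1, and within the 9 axillary nodes 0.73, 0.58, 0.65, -0.85, -0.83 and -0.59. TRBV19 held 36.7%, 32.4% and 30.5% of reads in hearts 1 to 3, against 21.1% to 25.3% in the nodes.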

How the data were processed

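TRB transcripts of sorted CD4+ T cells were amplified by multiplex PCR with V-segment primers and sequenced in a pool of 19 libraries, per the labels' protocols. The authors deposited, per library, whole-number read counts for each combination of CDR3, TRBV and TRBJ. Aligner, error correction and segment reference: not given in the sources used here. Without a named genome build, coordinates were left out. Multiplex primers may amplify segments unequally, which bears on levels between segments.

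Members, lists and alternatives were chosen with earlier results of these data known. Reads per TRBV-TRBJ pair were tested with edgeR 4.0.16 in R 4.3.3 (glmQLFit, robust, legacy settings; glmQLFTest), offset by the log of the TRBV total of each library, for pairs with at least 10 reads in at least 2 libraries, adjusted over all pairs at 0.05. All 16 nodes shared a fit; hearts and MI nodes had their own. DESeq2 1.42.0 was an alternative. CDR3 features were tested by exact permutation (Python 3.11.15, scipy 1.17.1). Distinct CDR3s and the share of the 10 most abundant used reads drawn to the smallest TRBV5 total, while length and ASSQ used all TRBV5 reads. The tests were checked on simulated data. Named TRBJ segments were those past the threshold, at most 5, or else the 2 with the smallest p. Named CDR3s were the top 3 of each heart, the top of each node and the 5 most abundant in all nodes, and named segments the 3 most and 3 least like TRBV5. Marker lists of other cells were not possible with TRB transcripts alone.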

Additional observations from a re-analysis of the deposited data

Results flagged for a closer look

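In the groups of 4, sham and adjuvant nodes, 5 values stood apart from the other 3 by Dixon's criterion, among 32 groups checked, where chance marks about 1 in 20. TRBV5 held 20.4% of reads in sham node 4 and 19.0% to 19.2% in the other sham nodes. In the same library TRBJ1-3 took 6.48% of TRBV5 reads, against 5.77% to 5.89%, and TRBJ2-3 took 13.1%, against 11.3% to 11.5%. Mean TRBV5 CDR3 length was 12.68 residues in sham node 2, against 12.66 in the other 3. TRBJ2-2 took 6.22% of TRBV5 reads in adjuvant node 1, against 5.33% to 5.41%.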

How the results depend on the processing

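The differences in TRBV5 share (first group minus second, in points) moved by more than the replicate SD under some settings, and the cause was not tested. By distinct entries they were -1.10 (MI minus sham), -0.433 (heart extract minus adjuvant), -2.51 (myosin minus adjuvant), -3.21 (sham minus adjuvant) and 0.654 (heart minus MI node). Without the 100 most abundant CDR3s they were -1.76 for myosin and -3.81 for the heart. By entries with 100 or more reads, a setting chosen after seeing the data, they were -0.729 for MI, -3.06 for heart extract, 0.701 for myosin and -12.6 for the heart.

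Called TRBJ partners of TRBV5 stayed at 0 in the other 4 comparisons under every setting run. For sham against adjuvant they numbered 4 with TMM factors, 3 with DESeq2, 4 by distinct entries and 0 with only those groups fitted, and 0 to 3 with 1 library left out. For heart against MI node they numbered 3 with DESeq2 and 0 by distinct entries, and 0 to 2 with 1 library left out. Log2 fold changes that turned sign were 0.0333 for TRBJ2-2 in MI against sham by distinct entries, and -0.0544 and -0.0741 for TRBJ2-5 with TMM factors in both antigens and in heart extract against adjuvant, none of them past the threshold. Within nodes, the TRBJ1-1 difference of TRBV5 from other segments turned to 0.874 points by distinct entries.

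Some CDR3 features turned sign. By distinct CDR3s, ASSQ differed by 3.35 points in MI minus sham, 0.661 in sham minus adjuvant and -21.9 in heart minus MI node, and length by -0.00936 residues in heart minus MI node. With entries of 10 or more reads, distinct CDR3s differed by 304.3 in antigen minus adjuvant. With 1 library left out, length ranged from -0.00186 to 0.00801 residues (MI minus sham), -0.0365 to 0.00342 (antigen minus adjuvant), -0.0369 to 0.00303 (sham minus adjuvant) and -0.0523 to 0.137 (heart minus MI node). ASSQ ranged from -0.382 to 0.0834 points (MI minus sham) and -3.32 to 4.89 (heart minus MI node), and distinct CDR3s from -1428 to 1366 (antigen minus adjuvant).

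Same-numbered libraries were not shown to be pairs: their deviations from the group means correlated by 0.0280 to 0.0379 over TRBV5 CDR3s of hearts and MI nodes, under 0.1, although each heart correlated best with its own number, a hint from the data and not the design. With the number as a replicate block, 0 partners were called in the heart (TRBJ1-4 had a log2 fold change of -1.36 and an adjusted p of 0.570 by edgeR) and 1 in sham against adjuvant, and no other call changed. Hearts, with 3 libraries of 5000 cells, limit what this depth can show.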
